A study of Mus musculus with 10 samples.

Results

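The liver releases glucose into the blood between meals and stores or burns it after meals, and 9 genes of these opposing routes were followed in whole mouse liver. They are Pck1, G6pc, Fbp1, Pcx, Tat, Ppargc1a, Pklr, Slc2a2 and Gys2, taken by name from 55385 gene IDs, and all 9 passed the filter on low counts that left 12872 tested genes. RNA from frozen, homogenised whole liver was sequenced on the BGISeq-500 in 10 libraries. The groups were 5 libraries titled Alk1-HEC-KO, with the genotype given as knockout of Alk1 (another name of Acvrl1, an endothelial receptor of the BMP family), and 5 titled Control. The labels spell out neither HEC nor the promoter that drives the deletion, and they give no age, sex, feeding state or hour of collection. Whether each library is a different mouse is not said either, so every p-value below is set against a spread between libraries that may be technical.

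Gluconeogenesis turns lactate, amino acids and glycerol into glucose, and it bypasses the irreversible steps of glycolysis with enzymes of its own. Fasting hormones raise its genes: glucagon acts through cyclic AMP and the transcription factor CREB, glucocorticoids through their receptor, and the FOXO1 factor acts when insulin is low. Insulin lowers the same genes, and sugar entering the hepatocyte raises the glycolytic gene Pklr through the factor ChREBP. Gluconeogenic enzymes are richest in hepatocytes near the portal vein, and glycolytic enzymes in those near the central vein.

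The RNA level of the targeted gene, taken over whole liver, was not lower in the libraries labelled as its knockout. Acvrl1 had 1.152, 1.39, 1.22, 1.92 and 1.12 TPM (kallisto's abundance unit, a level per transcript length) in libraries 1 to 5 labelled Alk1-HEC-KO, against 1.05, 0.296, 0.391, 0.661 and 0.951 TPM in Control libraries 1 to 5. All labelled knockout libraries stood above all Control libraries in TPM, and in scaled counts the groups overlapped (log2 fold change 0.99, SE 0.32, adjusted p = 0.336, edgeR). Its counts were low, at 18 to 119 per library. A total over whole liver cannot show whether the gene was deleted in some of its cells, and this was not tested. The group is therefore called labelled knockout below.

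The tissue was liver by its markers. The summed level of 10 hepatocyte markers, Alb among them, lay between 66484 and 102251 TPM in labelled knockout libraries and between 55978 and 102571 TPM in Control libraries, and none of the 10 was called, that is, had an adjusted p under 0.05 over all tested genes. Kidney also makes glucose, and its 5 markers summed to at most 0.0339 TPM in labelled knockout and 0.0419 TPM in Control libraries, with Slc34a1, Slc12a1 and Kap at 0 throughout. The 10 leukocyte markers summed to 42.0 to 112 TPM in labelled knockout and 27.7 to 42.9 TPM in Control libraries, and the 6 Kupffer cell markers to 71.3 to 145 and 43.4 to 75.6 TPM in the same order. No leukocyte or Kupffer marker was called. Estimates were above 0 for all 7 tested leukocyte markers (median 0.93) and all 6 Kupffer markers (median 0.81). All 8 endothelial markers had estimates above 0 (median 0.35), with sums of 25.9 to 53.7 TPM in labelled knockout and 18.2 to 34.0 TPM in Control libraries, and 1 of them rose (Emcn, an endothelial sialomucin, log2 fold change 2.02, adjusted p = 0.00453). Over all tested genes 0.186% were called higher and 0.171% lower (edgeR). Of the 14 markers of hepatocytes near the central vein, 10 were called and fell (median log2 fold change of the list -1.76). Of the 15 markers near the portal vein none was called (median 0.13). The part of these cell types in the results below was not tested, and in whole liver fewer cells of a type and less RNA per cell cannot be told apart. Depth was even, at 20.91 to 21.56 M estimated counts per library.

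Promoters of 4 of the genes are shown because they carry short motifs of the hormone and sugar pathways just described, in windows from 250 bases before to 50 bases after the RefSeq start (300 bases, mouse build GRCm38.p6). Capitals mark the searched motifs. Pck1 (chr2:173152823-173153122, plus strand) holds the cyclic AMP response element core ACGTCA at -91 to -86 from the start and, as ATTAAC on the reverse strand, the HNF1 half-site GTTAAT. G6pc (chr11:101367466-101367765, plus strand) holds GTTAAT, the insulin response sequence core TGTTTTG at -174 to -168, and, past the start, the carbohydrate response half-site CACGGG. Ppargc1a (chr5:51567676-51567975, minus strand) holds ACGTCA at -50 to -45. Pklr, at the second of its RefSeq starts (chr3:89136373-89136672, plus strand), holds CACGGG at -170 to -165 and again in reverse, as CCCGTG, at -159 to -154.
Pck1: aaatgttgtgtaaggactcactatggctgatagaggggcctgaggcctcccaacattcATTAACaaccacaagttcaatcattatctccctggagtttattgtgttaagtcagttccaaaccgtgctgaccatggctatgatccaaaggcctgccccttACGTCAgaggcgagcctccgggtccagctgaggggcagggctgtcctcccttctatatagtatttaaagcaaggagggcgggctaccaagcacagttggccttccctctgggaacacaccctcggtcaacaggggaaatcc
G6pc: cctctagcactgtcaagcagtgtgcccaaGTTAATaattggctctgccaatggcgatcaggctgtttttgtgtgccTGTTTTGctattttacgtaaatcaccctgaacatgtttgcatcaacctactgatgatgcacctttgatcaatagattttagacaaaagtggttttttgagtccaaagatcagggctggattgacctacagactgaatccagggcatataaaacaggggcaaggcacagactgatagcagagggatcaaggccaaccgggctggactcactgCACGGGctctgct
Ppargc1a: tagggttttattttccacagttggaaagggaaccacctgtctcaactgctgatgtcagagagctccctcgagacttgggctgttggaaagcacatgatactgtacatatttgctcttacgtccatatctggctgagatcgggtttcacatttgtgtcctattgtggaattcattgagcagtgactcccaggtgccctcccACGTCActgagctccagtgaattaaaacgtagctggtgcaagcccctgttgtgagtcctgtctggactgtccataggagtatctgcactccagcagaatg
Pklr: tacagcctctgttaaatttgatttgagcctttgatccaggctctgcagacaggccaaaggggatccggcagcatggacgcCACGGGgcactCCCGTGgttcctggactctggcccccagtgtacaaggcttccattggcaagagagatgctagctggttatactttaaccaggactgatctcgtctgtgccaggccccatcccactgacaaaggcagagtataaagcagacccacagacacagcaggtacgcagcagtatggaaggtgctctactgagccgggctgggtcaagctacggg

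Windows were given for 8 of the 9 genes, 10 windows in all, and 7 motifs were searched on both strands. ACGTCA was in 7.51% of all 32851 RefSeq windows, TGTTTTG in 6.28%, GTTAAT in 7.1% and CACGGG in 10.1%. The E-box CACGTG was in 7.15% of all windows and, among these genes, in the first of 2 windows of Pcx at -248 to -243. The FOXO core TGTTTAC (3.65% of all windows) and the glucocorticoid receptor half-site TGTTCT (19% of all windows) had no match in the 10 windows. No searched motif was in the windows of Fbp1, Tat and Slc2a2, the second window of Pcx or the first of Pklr. Matches of this length are common by their letters, so they are a description of the sequence and not of binding.

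None of the 9 genes was called between labelled knockout and Control livers: 0 passed at an adjusted p under 0.05, where 0.357% of all tested genes were called (46 of 12872, edgeR). By edgeR's quasi-likelihood test 0 had an unadjusted p under 0.05, where 8.44% of all tested genes did. In DESeq2, which called 0 of these genes too, Pklr alone was under it (unadjusted p = 0.0175). The log2 values of the labelled knockout and Control libraries overlapped for all 9, while they did not overlap for 1.68% of all tested genes. All 9 point estimates were below 0, with a median log2 fold change of -0.36 against 0.00 over all tested genes. Pck1 and Fbp1 turned to 0.04 and 0.07 with no scaling beyond library totals. The 9 genes also tended to move together from library to library, Pcx least, as shown further on.

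**Figure D1:**
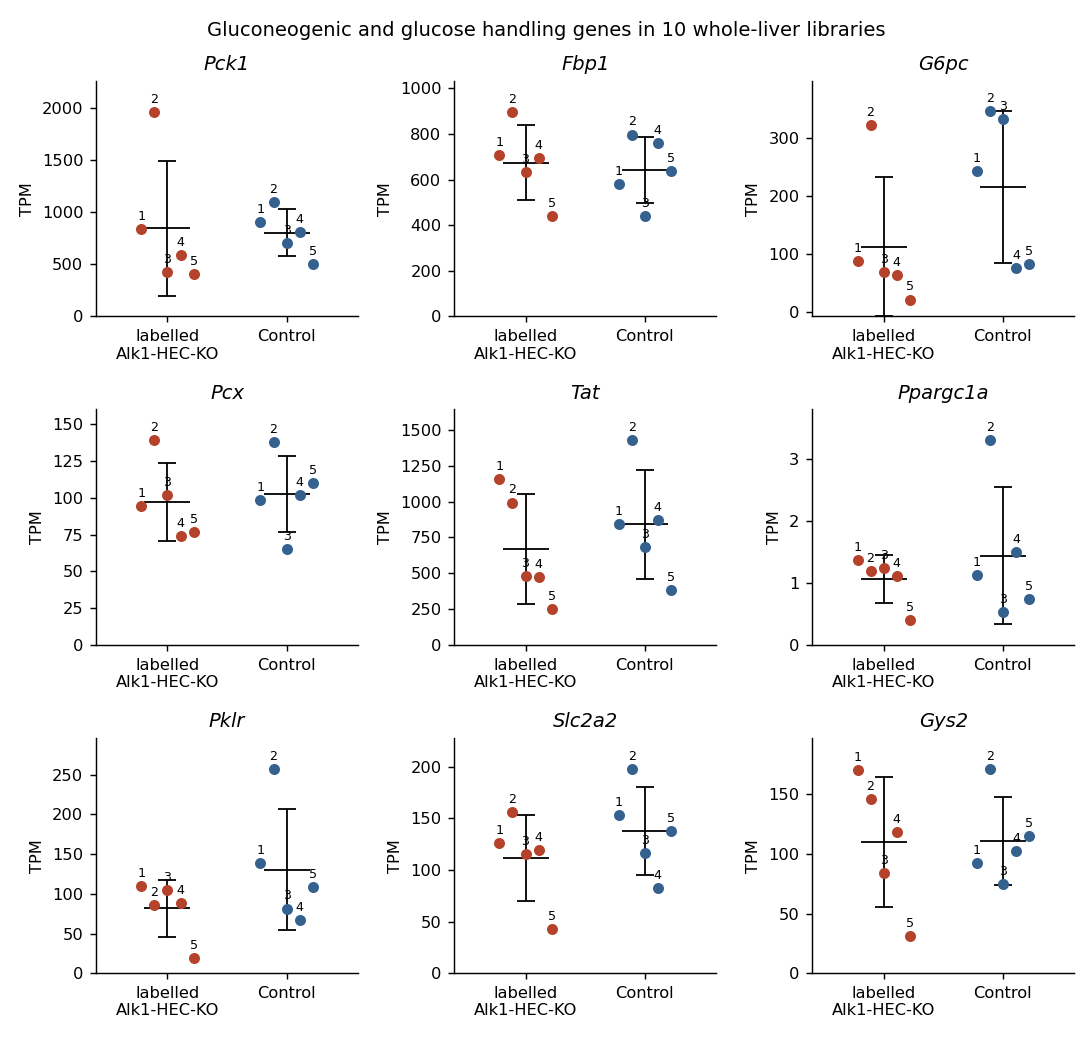
Level of each of the 9 genes in TPM (vertical axes, each from 0 or just below) in the 5 labelled Alk1-HEC-KO libraries (left, red) and the 5 Control libraries (right, blue). Points are libraries with their replicate number, long bars are group means and whiskers are 1 SD. The groups overlap for every gene; labelled knockout library 5 is the lowest of the 10 for 7 genes and Control library 2 the highest of the 10 for 6.

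The entry into gluconeogenesis is made by Pcx, pyruvate carboxylase, which makes oxaloacetate in mitochondria. Pcx (chr19:4510472-4621752, plus strand, GRCm38) had 94.3, 139, 102, 74.2 and 76.5 TPM in labelled knockout libraries 1 to 5, against 98.7, 138, 65.1, 102 and 109.7 TPM in Control libraries 1 to 5. Library 2 was the highest in both groups, and the ranges nearly coincided. Its log2 fold change was -0.14 (SE 0.15, 95% interval -0.46 to 0.19, adjusted p = 0.840).

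Pck1, cytosolic phosphoenolpyruvate carboxykinase, turns oxaloacetate into phosphoenolpyruvate and is a classical target of glucagon and insulin. Pck1 (chr2:173153048-173159273, plus strand) had 843, 1967, 430.4, 586 and 408 TPM in labelled knockout libraries, against 906, 1104, 708, 815 and 499.6 TPM in Control libraries. One labelled knockout library, number 2, stood far above all others, and the libraries numbered 3, 4 and 5 of that group were low. The means were alike, 847 ± 650 TPM in labelled knockout and 807 ± 225 TPM in Control livers (SD, n = 5 each), but the SD was larger in the labelled knockout group. For Pck1 the log2 fold change was -0.07 (SE 0.35, interval -0.83 to 0.70, adjusted p = 0.971), and it was -0.50 without labelled knockout library 2 (adjusted p = 0.670). Its mitochondrial paralog Pck2 averaged 1.06 ± 0.379 TPM in labelled knockout and 1.21 ± 0.752 TPM in Control livers (log2 fold change -0.11, adjusted p = 0.953).

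Fbp1, fructose bisphosphatase, reverses the phosphofructokinase step. Fbp1 (chr13:62864753-62888282, minus strand) had 706, 897, 633, 693 and 439 TPM in labelled knockout libraries, against 582, 797, 438, 760.2 and 639 TPM in Control libraries. Both groups ran over the same range, with the lowest libraries almost equal. The log2 fold change was -0.01 (SE 0.14, interval -0.31 to 0.30, adjusted p = 0.994), an interval that corresponds to folds of 0.804 to 1.23. Its muscle paralog Fbp2 was not tested and reached at most 0.332 TPM.

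G6pc, the catalytic subunit of glucose-6-phosphatase, releases free glucose in the last step that gluconeogenesis and glycogen breakdown share. G6pc (chr11:101367561-101377903, plus strand) had 87.7, 322, 68.4, 63.5 and 21.5 TPM in labelled knockout libraries, against 242, 346, 333, 75.7 and 82.9 TPM in Control libraries. Control libraries fell into 3 high and 2 low ones, and 3 of 5 labelled knockout libraries lay near the low Control values, with library 5 below them and library 2 among the high ones. The means were 113 ± 120 TPM in labelled knockout and 216 ± 131 TPM in Control livers (SD, n = 5 each). This was the lowest log2 fold change of the 9 genes and the least precise, -1.18 (SE 0.69, interval -2.75 to 0.38, adjusted p = 0.696). Without labelled knockout library 2 it was -1.94 (adjusted p = 0.344), and without Control library 3 it was -0.82 (adjusted p = 0.782).

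The 3 Control libraries high in G6pc were also those high in Nr4a1, an immediate early orphan receptor that takes part in hormonal control of gluconeogenic genes. Nr4a1 had 2.30, 6.29, 0.829, 5.13 and 0.839 TPM in labelled knockout libraries, against 45.9, 45.1, 14.8, 0.812 and 1.13 TPM in Control libraries (log2 fold change -3.16, SE 1.22, adjusted p = 0.534). Labelled knockout library 2 departed from this, with high G6pc and low Nr4a1. The 9 immediate early and heat shock genes summed to 115, 135, 85.3, 178 and 70.3 TPM in labelled knockout libraries. In Control libraries they summed to 325, 348, 161, 138 and 105 TPM. Labelled knockout library 4 was above Control library 3 in this sum, while its G6pc was lower (63.5 against 333 TPM). Without the 2 libraries with Fos above 20 TPM (Control 1 and 2) the log2 fold change of G6pc was -0.95. The part of these 9 genes in the G6pc values was not tested further. The glucose-6-phosphate transporter Slc37a4, which works with G6pc, averaged 104 ± 29.1 TPM in labelled knockout and 102 ± 21.3 TPM in Control livers (log2 fold change -0.05, adjusted p = 0.947), and the ubiquitous paralog G6pc3 averaged 5.32 ± 0.730 and 4.58 ± 0.623 TPM in the same order (log2 fold change 0.14, adjusted p = 0.860).

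Tat, tyrosine aminotransferase, breaks down tyrosine and is a classical glucocorticoid-induced gene of fasting liver. Tat (chr8:109990437-109999803, plus strand) had 1155, 993, 478, 476 and 251 TPM in labelled knockout libraries, against 844, 1428, 683, 869 and 380.1 TPM in Control libraries. In each group the libraries numbered 1 and 2 were among the 3 highest and library 5 was the lowest. The labels do not say whether the numbers pair libraries, and they were not taken as pairs. In the fit, Tat had a log2 fold change of -0.42 (SE 0.37, interval -1.22 to 0.38, adjusted p = 0.801).

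Ppargc1a encodes PGC-1α, a coactivator that drives gluconeogenic genes in fasting. Ppargc1a (chr5:51454250-51567726, minus strand) had 1.37, 1.19, 1.23, 1.11 and 0.3995 TPM in labelled knockout libraries, against 1.13, 3.30, 0.526, 1.499 and 0.738 TPM in Control libraries. Of the labelled knockout libraries 4 were close together with library 5 well below, and Control library 2 stood above the other 9. Counts were low for a liver gene, from 54 to 310 per library. The log2 fold change was -0.36 (SE 0.34, interval -1.11 to 0.38, adjusted p = 0.820), and it was 0.02 without Control library 2.

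Pklr, the liver pyruvate kinase, catalyses the last step of glycolysis and works against Pck1. Pklr (chr3:89136142-89146784, plus strand) had 109, 86.2, 105, 88.2 and 19.7 TPM in labelled knockout libraries, against 139, 258, 81.7, 66.7 and 108 TPM in Control libraries. Labelled knockout library 5 stood far below all others and Control library 2 far above, and the remaining 8 libraries lay between 66.7 and 139 TPM. The log2 fold change of -0.85 (SE 0.40, interval -1.72 to 0.02, adjusted p = 0.598) had the smallest p of the 9 genes. It was -0.62 without labelled knockout library 5, -0.52 without Control library 2, and -0.37 without both libraries of high Fos (adjusted p = 0.910, 0.9996 and 0.9998 in this order). It was farther below 0 without labelled knockout library 1 (-1.05, adjusted p = 0.305) and without Control library 4 (-1.03, adjusted p = 0.431). Pklr overlaps Hcn3 on the opposite strand, and the strand setting is not given in the sources used here, so their reads may not be fully told apart. Hcn3 ran from 1.07 to 11.1 TPM in labelled knockout and from 3.82 to 14.7 TPM in Control libraries (log2 fold change -1.06, adjusted p = 0.567), and like Pklr it was lowest in labelled knockout library 5 and highest in Control library 2.

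Slc2a2 encodes GLUT2, the transporter through which hepatocytes take up and release glucose. Slc2a2 (chr3:28697903-28731359, plus strand) had 126, 156, 115, 119 and 43.2 TPM in labelled knockout libraries, against 153, 198, 117, 82.9 and 137 TPM in Control libraries. Apart from the low value of labelled knockout library 5, all values lay between 82.9 and 198 TPM. This gave a log2 fold change of -0.46 (SE 0.27, interval -1.04 to 0.13, adjusted p = 0.693).

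Gys2, liver glycogen synthase, extends glycogen chains and so stores glucose. Gys2 (chr6:142422613-142473109, minus strand) had 170.3, 146, 84.1, 119 and 31.2 TPM in labelled knockout libraries, against 92.1, 171, 74.9, 102 and 115 TPM in Control libraries. The means were nearly equal, 110.1 ± 54.6 TPM in labelled knockout and 111 ± 36.8 TPM in Control livers (SD, n = 5 each). The log2 fold change was -0.18 (SE 0.32, interval -0.88 to 0.52, adjusted p = 0.906), and it was 0.05 without labelled knockout library 5. The muscle paralog Gys1 was at 0.557 to 0.832 TPM in labelled knockout and 0.301 to 0.911 TPM in Control libraries.

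**Figure D2:**
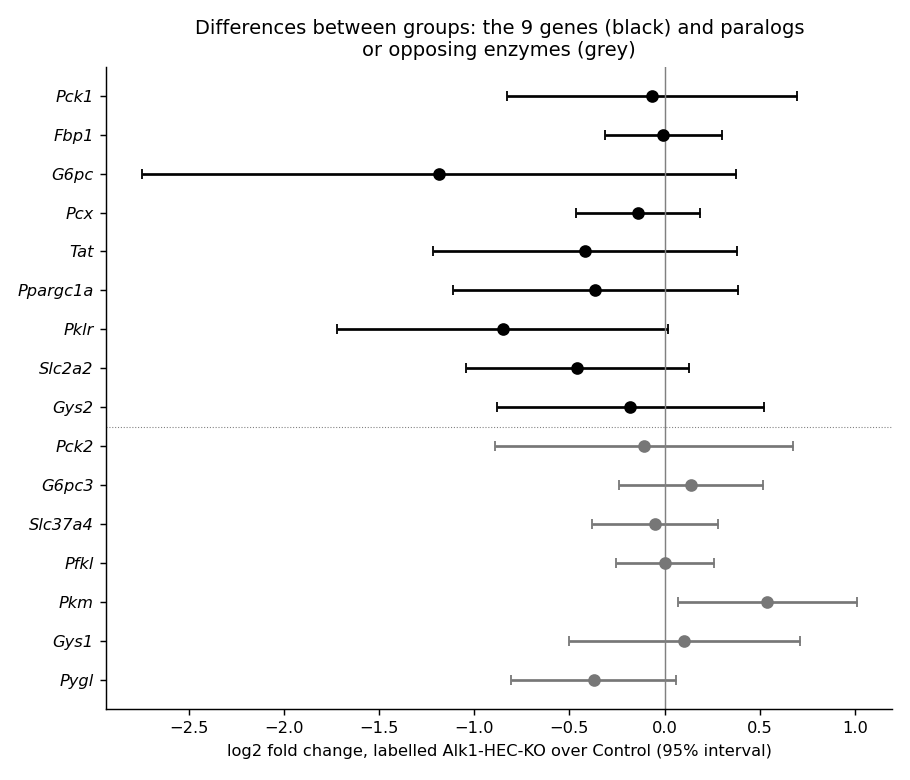
Log2 fold changes of labelled Alk1-HEC-KO over Control (horizontal axis) for the 9 genes (black) and for paralogs and opposing enzymes (grey). Bars are approximate 95% intervals derived from the edgeR test. The intervals of all 9 genes include 0; they are narrowest for Fbp1 (-0.31 to 0.30) and Pcx (-0.46 to 0.19) and widest for G6pc (-2.75 to 0.38).

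The precision of these comparisons differed widely among the 9 genes, since their spread between libraries of a group did. Fbp1 and Pcx were steady, with within-group SDs of 0.17 and 0.22 in log2 CPM (scaled counts on a log scale) that stood at percentiles 11.9 and 26.03 of all tested genes. G6pc was at the opposite end, with an SD of 1.18 at percentile 98.1, followed by Pklr at 0.75 (percentile 92.9) and Tat at 0.69 (percentile 90.7). Gys2, Pck1 and Ppargc1a had SDs of 0.62 to 0.63 and Slc2a2 0.53, against a median of 0.31 over all tested genes. Over the 10 libraries the highest TPM was 16.05 times the lowest for G6pc and 13.1 times for Pklr, and 2.05 and 2.14 times for Fbp1 and Pcx. For G6pc the 95% interval allows a fold between 0.149 and 1.30.

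By mean TPM over the 10 libraries the order was Pck1 (827), Tat (756), Fbp1 (658), G6pc (164), Slc2a2 (125), Gys2 (111), Pklr (106), Pcx (99.9) and Ppargc1a (1.25). The order held in every library at 2 places. Fbp1 was above G6pc in 10 of 10 (mean log2 ratio 2.46 ± 1.27, SD), and Pcx above Ppargc1a in 10 of 10 (6.51 ± 0.65, SD). Other neighbours changed places: Pck1 exceeded Tat in 6 of 10 libraries, Tat exceeded Fbp1 in 6, G6pc exceeded Slc2a2 in 4, Slc2a2 exceeded Gys2 in 8, Gys2 exceeded Pklr in 6 and Pklr exceeded Pcx in 6.

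The 9 genes tended to vary together from library to library, Pcx least (r from 0.14 to 0.36 with the others). After centring on each group's mean, all 36 pairs of genes correlated positively in log2 CPM over the 10 libraries, from r = 0.14 (Pcx and Tat) to 0.95 (Pklr and Slc2a2), with a median of 0.51. The closest were Pklr, Slc2a2 and Gys2, with r = 0.85 for Pklr and Gys2 and 0.80 for Slc2a2 and Gys2. The fasting pair Pck1 and G6pc had r = 0.78, while Pck1 and Pklr, which act against each other, had 0.26. These values share libraries, depth and scaling, so they are a description only.

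**Figure D3:**
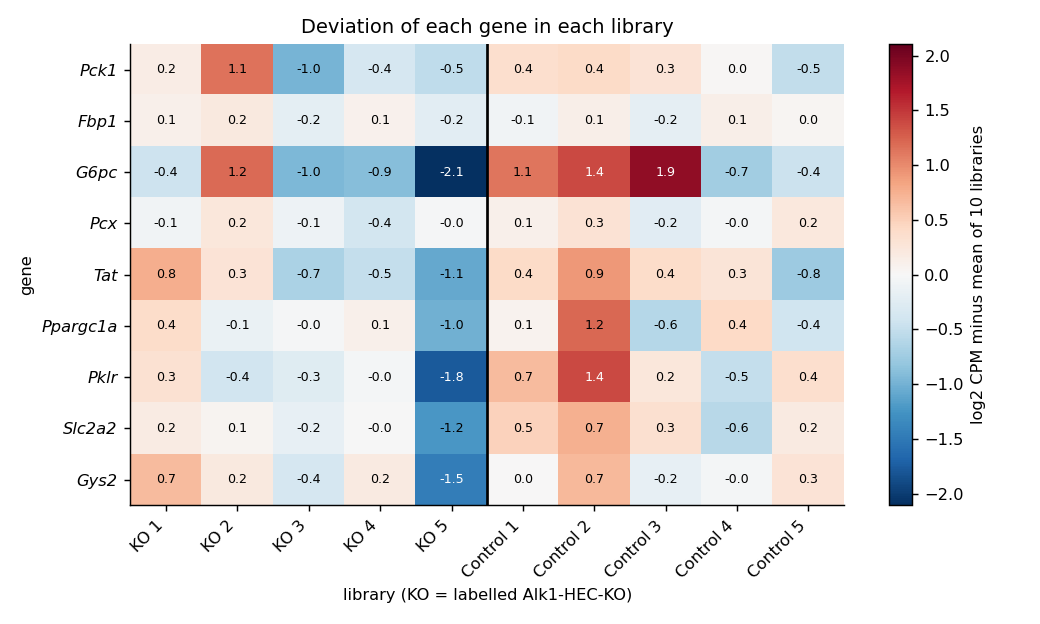
Deviation of each of the 9 genes (rows) in each library (columns, labelled Alk1-HEC-KO left and Control right of the line) from its own mean over the 10 libraries, in log2 CPM (red above, blue below). Labelled knockout library 5 is below the mean for all 9 genes and Control library 2 above it for all 9; Fbp1 and Pcx hardly depart from 0.

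The movement was largest in labelled knockout library 5 and Control library 2. In labelled knockout library 5 all 9 genes were below their 10-library mean in log2 CPM, by 1.05 on average, and 7 of them had their lowest TPM of the series there. Pcx was barely below, at 8.41 against group means of 8.36 in labelled knockout and 8.50 in Control libraries. Control library 2 was above the mean for all 9, by 0.80 on average, and held the highest TPM of the Control group for each of them. Labelled knockout library 2 was 0.31 above on average, with the highest TPM of the series for Pck1, Fbp1 and Pcx but with Pklr and Ppargc1a below their means. Labelled knockout library 3 was also below the mean for all 9, by 0.41 on average, and Control library 1 was above it for 8, by 0.35 on average. Hepatocyte markers moved less, with average deviations between -0.16 and 0.11 in all 10 libraries and 0.11 in labelled knockout library 5.

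Genes that follow feeding and fasting differed among the same libraries. The 13 tested genes of the fed state, most of them lipogenic, were on average 1.31 below their mean in labelled knockout library 5 and 0.99 below in labelled knockout library 2, and 1.31 above in Control library 2. The 14 genes of the fasted state were on average 1.44 above their mean in labelled knockout library 2, and between -0.70 and 0.59 in every other library. The profile of labelled knockout library 2 was thus high in Pck1, G6pc and fasted-state genes and low in fed-state genes. Labelled knockout library 5 was low in the average of the 9 genes and in fed-state genes without high fasted-state genes (-0.15). Summed levels of the fed-state list ran from 590.3 to 5127 TPM in labelled knockout and from 1790.1 to 7453 TPM in Control libraries, and those of the fasted-state list from 795 to 3487 TPM and from 827 to 1349.8 TPM in the same order.

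**Figure D4:**
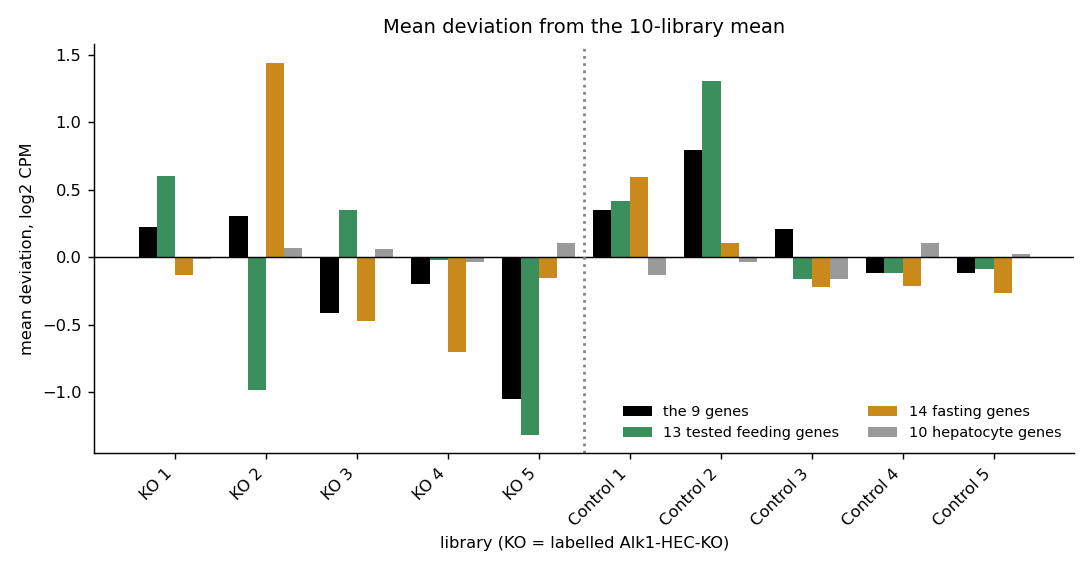
Mean deviation from the 10-library mean in log2 CPM (vertical axis) of the 9 genes (black), 13 fed-state genes (green), 14 fasted-state genes (orange) and 10 hepatocyte genes (grey) in each library, with labelled Alk1-HEC-KO (KO) left of Control. Black and green bars are lowest in labelled knockout library 5 and highest in Control library 2, the orange bar is highest in labelled knockout library 2, and the grey bars stay near 0.

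Single genes show the same contrast. Thrsp, a lipogenic gene raised by feeding, had 1525, 164, 632, 530.2 and 34.1 TPM in labelled knockout libraries, against 827, 1381, 740.0, 469 and 754 TPM in Control libraries. It was lowest in labelled knockout libraries 5 and 2. Igfbp1, a secreted protein that insulin lowers, had 18.7, 597, 33.0, 52.6 and 17.6 TPM in labelled knockout libraries, against 116, 176, 98.8, 61.2 and 21.1 TPM in Control libraries. Only library 2 of the labelled knockout group exceeded the Control range. Neither gene was called between the groups (adjusted p = 0.860 for Thrsp and 0.946 for Igfbp1, edgeR), and both were picked after their values were seen. Acute phase genes also set library 5 apart: the 10 listed summed to 44225 TPM there and to 22561 TPM in labelled knockout library 4, against 26965 TPM in Control library 4 and 3767 to 10577 TPM in the other 7. The labels give no feeding state, and the part of feeding, fasting or acute phase response in the values of the 9 genes was not tested.

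The order of the deposited names could be followed only in part. Consecutive numbers in the deposited names fall into 3 runs, which the labels do not explain: the first holds labelled knockout library 1 and Control libraries 1 and 2, the second labelled knockout library 3 and Control libraries 3, 4 and 5, and the third labelled knockout libraries 2, 4 and 5 with no control. Within the first and the second run G6pc differed by -1.70 and -1.18 in log2 CPM (labelled knockout minus Control), Pck1 by -0.22 and -0.91, Pklr by -0.71 and -0.29 and Slc2a2 by -0.44 and -0.16. Gys2 changed sign, at 0.32 and -0.38, as did Fbp1 at 0.08 and -0.19, Tat at 0.10 and -0.63 and Ppargc1a at -0.26 and 0.18, while Pcx was at -0.28 and -0.09. In TPM, labelled knockout exceeded the Control mean in the second run for Pklr (105 against 85.5), Slc2a2 (115 against 112), Pcx (102 against 92.3) and Fbp1 (633 against 612), so the sign of these 4 depends on the scale there. Each difference rests on 1 labelled knockout library. Labelled knockout libraries 2 and 5, which stood apart above, are both in the third run, where run and label cannot be told apart.

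The rest of glucose metabolism was equally without called genes. Lists on 10 aspects, with 194 genes of which 181 were tested, held 0 genes called in edgeR. At an unadjusted p under 0.05 there were 12 (6.63% of the 181, against 8.44% of all tested genes), and DESeq2 called 2 (1.1%, against 1.18% of all tested genes), so both shares were near those over all genes. Point estimates were below 0 for 122 and above 0 for 59, with a median log2 fold change of -0.11 against 0.00 over all tested genes. The median of the 9 genes (-0.36) was thus farther below 0 than that over all genes of the 10 lists, without a test of that difference. It was not farther below 0 than that of every single list, since the fed-state list had a median of -0.45.

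Other genes of the gluconeogenic route gave 8 estimates above and 14 below 0 among 22 tested of 23, with a median of -0.05. Sdsl, a serine dehydratase-like gene, had the smallest adjusted p (21.8 ± 6.20 TPM in labelled knockout and 11.7 ± 5.28 TPM in Control livers, SD, n = 5 each, log2 fold change 0.92, adjusted p = 0.426). The most abundant was Ldha, the lactate dehydrogenase subunit that interconverts lactate and pyruvate, at 471 ± 222 TPM in labelled knockout and 325 ± 79.4 TPM in Control livers (log2 fold change 0.48, adjusted p = 0.693).

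Glycolytic genes had 20 of 28 tested estimates below 0 and a median of -0.17. Pfkfb3, which makes the fructose bisphosphate that activates phosphofructokinase, had 5.61, 3.05, 2.60, 1.68 and 0.407 TPM in labelled knockout libraries, against 6.41, 10.3, 5.14, 6.73 and 8.98 TPM in Control libraries. In TPM, all labelled knockout libraries but library 1 were below every Control library. In log2 CPM the groups did not overlap, with labelled knockout library 1 at 4.46 and the lowest Control library at 4.66. Groups did not overlap for 1.68% of all tested genes. Its log2 fold change was -1.58 (SE 0.46, adjusted p = 0.325 in edgeR), it was called in DESeq2 (adjusted p = 0.0130), and in edgeR without labelled knockout library 1 (log2 fold change -2.07, adjusted p = 0.0449). Pfkl, the liver phosphofructokinase, had a log2 fold change of 0.00, and Pkm, the pyruvate kinase of most other cells, 0.54 (7.08 ± 2.61 TPM in labelled knockout and 4.66 ± 0.635 TPM in Control livers, adjusted p = 0.519).

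Of 20 tested glycogen genes 12 had estimates below 0 (median -0.13). Ugp2, which makes the sugar donor of glycogen synthesis, had the smallest adjusted p (log2 fold change -0.59, adjusted p = 0.586) and was the most abundant. Pygl, liver glycogen phosphorylase, averaged 118 ± 37.05 TPM in labelled knockout and 144 ± 42.2 TPM in Control livers (log2 fold change -0.37, adjusted p = 0.664). The largest estimate was that of Ppp1r3g, a glycogen-targeting subunit of protein phosphatase, with 6.56, 5.36, 1.21, 3.65 and 0.0419 TPM in labelled knockout libraries, against 19.4, 36.1, 6.33, 1.28 and 1.94 TPM in Control libraries (log2 fold change -2.03, SE 1.09, adjusted p = 0.679). Control libraries 1 and 2 were its highest and labelled knockout library 5 its lowest. Among the other glucose transporters 6 of 12 were tested, with 3 estimates on each side of 0 and a lowest adjusted p of 0.822: Slc2a9 was the most abundant (log2 fold change -0.01), Slc2a4 had the largest estimate (0.53) and Slc5a1 the smallest adjusted p.

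Of 30 genes of hormone signalling to the liver 23 had estimates below 0 (median -0.10). Prkaa2, a catalytic subunit of the energy sensor AMPK, had the smallest adjusted p (log2 fold change -0.54, SE 0.20, adjusted p = 0.495). Sik1, a kinase induced by cyclic AMP that restrains gluconeogenic transcription, had 2.42, 4.37, 4.55, 2.68 and 1.16 TPM in labelled knockout libraries, against 9.76, 10.2, 7.19, 3.30 and 1.78 TPM in Control libraries (log2 fold change -1.23, SE 0.47, adjusted p = 0.516). As for Nr4a1, Control libraries 1 to 3 were its 3 highest of all libraries. For G6pc labelled knockout library 2 (322 TPM) was above Control library 1 (242 TPM). Hsd11b1, which regenerates active glucocorticoid and is the most abundant of the list, was at -0.02 (348 ± 68.3 TPM in labelled knockout and 332 ± 58.9 TPM in Control livers, adjusted p = 0.9754). Among 30 transcriptional regulators of these genes 22 estimates were below 0 (median -0.09), with Nr4a1 the largest, and the abundant hepatocyte factor Cebpa was at -0.04 (adjusted p = 0.959).

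Of 14 fasted-state genes 9 had estimates above 0 (median 0.26), and 13 of 13 tested fed-state genes were below 0 (median -0.45), with 0 called in either list. Cyp4a14, a fatty acid hydroxylase induced through PPARα, had 3.41, 188, 2.43, 0.424 and 22.7 TPM in labelled knockout libraries, against 7.90, 1.65, 1.88, 4.33 and 3.31 TPM in Control libraries. Its log2 fold change was 3.27 (SE 1.48, adjusted p = 0.601): labelled knockout libraries 2 and 5 were above the Control range, and the other 3 of that group were within or below the Control range. Of the fed-state genes, Fasn, fatty acid synthase, was at -0.77 (adjusted p = 0.712), Elovl6, a fatty acid elongase, at -0.94 (adjusted p = 0.747) and Scd1, the abundant desaturase, at -0.44 (adjusted p = 0.899).

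Glucocorticoid targets were split, with 6 estimates above and 7 below 0 (median -0.33). Cdkn1a, a cell cycle inhibitor, had 2.10, 33.1, 1.199, 1.40 and 21.6 TPM in labelled knockout libraries, against 1.18, 0.663, 0.507, 1.22 and 0.373 TPM in Control libraries. Libraries 2 and 5 of the labelled knockout group stood far above all others. Its log2 fold change was 3.87 (SE 1.14, adjusted p = 0.352 in edgeR), and DESeq2 called it (adjusted p = 0.00887). Mt1, a metallothionein and the most abundant of the list, was above 1000 TPM in labelled knockout libraries 2, 4 and 5 and in Control library 4 (log2 fold change 1.64, adjusted p = 0.813). Of 14 clock genes, which time many of these enzymes over the day, 11 estimates were below 0 (median -0.28), with Per2 at -0.85 (adjusted p = 0.594), Arntl at 1.04 (adjusted p = 0.712) and the abundant Dbp at -0.29 (adjusted p = 0.841).

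The balance of opposing enzymes was compared as a ratio of TPM in each library. Pck1 over Pklr was 7.70, 22.8, 4.10, 6.64 and 20.8 in labelled knockout libraries, against 6.54, 4.29, 8.68, 12.2 and 4.61 in Control libraries. Labelled knockout libraries 2 and 5 were above the Control range, library 2 with high Pck1 and library 5 with low Pklr. Within gluconeogenesis, Pck1 over G6pc was 9.602, 6.10, 6.29, 9.22 and 19.0 in labelled knockout libraries, against 3.74, 3.19, 2.13, 10.8 and 6.03 in Control libraries. It was highest in labelled knockout library 5 and lowest in Control libraries 1 to 3, those high in G6pc.

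Among the other ratios, that of Fbp1 over Pfkl had the smallest log2 SD, 0.22 in labelled knockout and 0.17 in Control libraries. It ran from 60.1 to 88.8 (median 82.1) in labelled knockout and from 70.8 to 95.1 (median 76.6) in Control libraries. Gys2 over Pygl, glycogen synthesis over breakdown, ran from 0.560 to 1.21 in labelled knockout and from 0.661 to 0.889 in Control libraries, with 3 labelled knockout libraries above and 2 below the Control range. Pklr over Pkm ran from 3.26 to 19.5 in labelled knockout and from 14.2 to 48.0 in Control libraries, and was lowest in labelled knockout library 5. No test was made of these ratios.

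**Figure D5:**
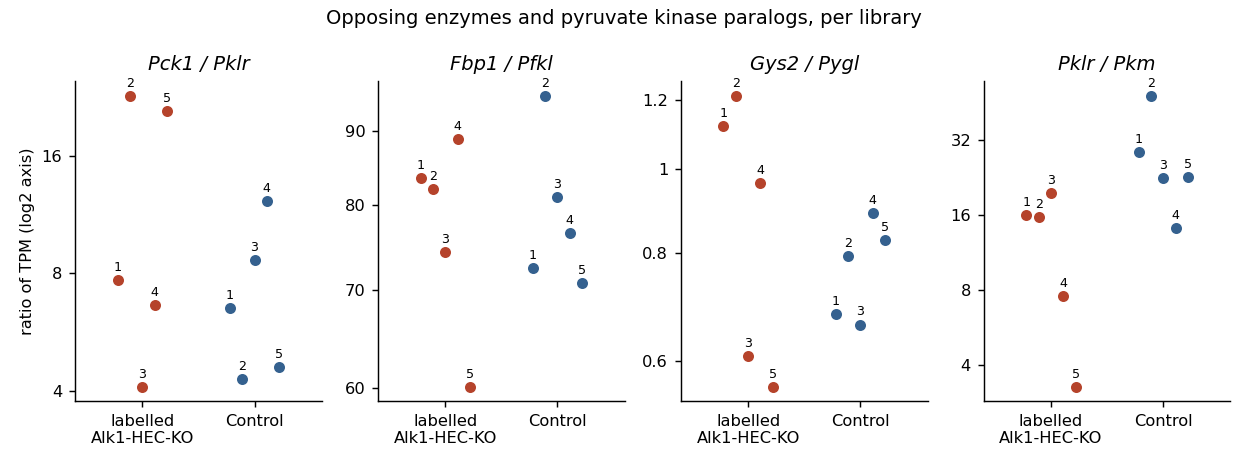
Ratio of TPM of opposing enzymes, and of the pyruvate kinase paralogs Pklr and Pkm, in each library (vertical log2 axes) for labelled Alk1-HEC-KO (left, red) and Control (right, blue), with replicate numbers beside the points. For Pck1 over Pklr, labelled knockout libraries 2 and 5 lie above all Control libraries; for Pklr over Pkm, labelled knockout library 5 is the lowest (3.26).

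Among 10446 tested genes averaging 1 TPM or more, those most like 3 of the regulated members were found by correlation of group-centred log2 CPM over the 10 libraries. For Pck1 they were Trp53inp1 (r = 0.94), Btg1 (0.92) and 1810055G02Rik (0.91). For G6pc they were Irf2bp2 (0.94), Slc20a1 (0.94) and Ppp1r15a (0.94), all above the likeness of G6pc to any other member (0.78, Pck1). For Ppargc1a they were Clic4 (0.98), Ecpas (0.97) and Atmin (0.97), whose log2 fold changes lay between -0.17 and 0.00. As the highest of so many correlations over 10 libraries these values are a measure of likeness only.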

How the data were processed

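Each of the 10 libraries had a table of estimated counts and a table of TPM per gene, both deposited by the authors. Per the submitters' processing notes, reads were handled with Trim Galore 0.6.4 and kallisto 0.4.6 against GRCm38.p6, and how transcripts were summed to genes and whether strand was used is not given in the sources used here. The deposited estimated counts (38.3% of nonzero values whole within 1e-06) were rounded to whole numbers for the tests, which moved no library total by more than 0.00069%. The deposited TPM were used as they stand for levels, which compare genes per length. Symbols and coordinates came from a GRCm38 annotation and matched 55144 IDs; the remaining 241 took up to 0.013% of any library's counts.

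Genes were filtered with filterByExpr of edgeR 4.0.16 (R 4.3.3), scaled by TMM (factors 0.869 to 1.107) and tested with its robust quasi-likelihood test, with group as the only term and Benjamini-Hochberg adjustment over all 12872 tested genes. Adjusted p-values are from this fit unless another tool is named, and a gene was called, and said to rise or fall, at an adjusted p under 0.05. The SE was taken as the size of the log2 fold change over the square root of the test's F statistic. The 95% interval used this SE and a t quantile, so both are approximate. Log2 CPM used a prior count of 2, and the common biological coefficient of variation was 0.272. Alternatives covered other scalings, filters, the replicate number as a block, the run of file-name numbers, libraries left out, limma 3.58.1 on log2(TPM + 1) or log2(TPM + 0.1), and DESeq2 1.42.0. The fit without labelled knockout libraries 2 and 5 was chosen after seeing the data.

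The 9 genes, the lists and the tests were chosen with earlier results of these data known. All 9 are named. From each list on glucose metabolism and its control the text names called genes, the smallest adjusted p, the largest estimate, the most abundant gene and preset paralogs. Marker lists are given by counts, medians and sums. The markers Alb, Slc34a1, Slc12a1, Kap and Emcn, and the genes Thrsp, Igfbp1, Asns, Hcn3 and Fos, lie outside these rules. Some genes of these lists are not reported here by name. Promoters came from the RefSeq table of GRCm38.p6. Same-numbered libraries did not deviate together (r from -0.10 to 0.28 over genes, 2 of 5 closest to their own number), so replicate numbers were not taken as pairs.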

Additional observations from a re-analysis of the deposited data

Results flagged for a closer look

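For the 9 genes, the genes named from the glucose lists, and Igfbp1, Thrsp, Acvrl1 and Hcn3, 86 groups of 5 libraries were examined for a library whose gap to the next took up over 0.71 of the group's range, and 13 had one. For independent values from a normal distribution this is found in about 1 in 20 groups. The 86 groups share the same libraries, TPM need not be normal, and some genes were picked by their values. The 13 can therefore not be set against that rate. Of the 9 glucose genes, 4 were among them. Pck1 at 1967 TPM and G6pc at 322 TPM in labelled knockout library 2 stood above the next libraries of that group at 843 and 87.7 TPM. Pklr at 19.7 TPM and Ppargc1a at 0.3995 TPM in labelled knockout library 5 stood below the next at 86.2 and 1.11 TPM. Of the other genes, labelled knockout library 2 stood above its group in Igfbp1 (597 TPM, next 52.6), Cyp4a14 (188 TPM, next 22.7) and Fbp2 (0.332 TPM, next 0.0465). Labelled knockout library 4 stood above in Pkm (11.6 TPM, next 6.86). In the Control group, library 2 stood above in Fasn (659 TPM, next 295) and Pygl (216 TPM, next 139), library 4 in Ldha (463 TPM, next 316) and Mt1 (2176 TPM, next 200.3), and library 5 in Slc5a1 (0.292 TPM, next 0.153). The cause was not tested.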

How the results depend on the processing

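Under all 24 alternatives 0 of the 9 genes were called, with a lowest adjusted p of 0.305 (Pklr without labelled knockout library 1). G6pc, Pcx, Tat, Pklr and Slc2a2 kept estimates below 0 throughout: G6pc from -1.94 to -0.82, Pklr from -1.05 to -0.37, Slc2a2 from -0.62 to -0.20, Tat from -0.74 to -0.10 and Pcx from -0.27 to -0.05. Estimates of the other 4 changed sign. Pck1 was lowest at -0.59 with the run as covariate, and at -0.45 without the third run and -0.47 without labelled knockout libraries 2 and 5. Pck1 was at 0.0401 by library totals alone, 0.19 without libraries of Saa1 above 1000 TPM, 0.11 without those of Fos above 20 TPM, and from -0.50 to 0.11 when each library was left out. Fbp1 was at 0.0689, 0.0792 and 0.00536 in the same settings, 0.00817 without mitochondrially encoded genes, 0.0605 and 0.0606 with limma at pseudocounts 1 and 0.1, and from -0.0489 to 0.0671 leaving out each library. Ppargc1a was at 0.0551 without high Fos and from -0.51 to 0.0180 leaving out each library. Gys2 was at 0.0530 without the third run, 0.00487 without high Saa1, 0.0369 without labelled knockout libraries 2 and 5, and from -0.41 to 0.0520 leaving out each library. Genes of the 10 lists were called in 3 settings: 2 with DESeq2, and 0 to 1 leaving out each library (Pfkfb3 without labelled knockout library 1, Asns without Control library 4 at adjusted p = 0.0191). Over all tested genes 46 were called, against 119 with no filter, 152 with DESeq2, 23 and 27 with limma at pseudocounts 1 and 0.1, 5 with the run as covariate, 20 without the third run, 30 without high Saa1 and 17 without high Fos. Leaving out each library gave 33 (without Control library 5) to 83 (without labelled knockout library 1). The replicate block gave 40 called genes and 0 of the 9, with G6pc at -1.27 (adjusted p = 0.468) and Tat at -0.48 (adjusted p = 0.568). Their unadjusted p in that edgeR fit were 0.0192 and 0.0454. Unadjusted edgeR p under 0.05 also came from leaving out libraries. For G6pc it was 0.0101 without labelled knockout library 2 and 0.0316 without labelled knockout libraries 2 and 5. Without labelled knockout library 1 it was 0.0287 for Pklr and 0.0486 for Tat. For Pklr and Slc2a2 it was 0.0188 and 0.0241 without Control library 4, and 0.0211 and 0.0364 without high Saa1. The cause of these moves was not tested. Depth limits Ppargc1a most, at 54 to 310 counts per library; the other 8 genes had at least 1040 counts in every library.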
